A study of Mus musculus with 6 samples.

Results

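The genes described here are 39 genes of motile cilia and of multiciliogenesis, taken by their symbols from the 55359 annotated genes of a mouse brain RNA sequencing study. They comprise 6 regulators and 33 genes for parts of the ciliary axoneme or closely tied to it. All 39 symbols were found. Whole brains at E18.5, late in gestation, came from embryos with a knock-in of the S156A form of PME-1 (3 libraries) and from wild-type embryos (WT, 3 libraries). Each library was a pool of 3 brains, and the number of mutant alleles, the strain and the sex of the embryos were not stated in the labels. PME-1 is an esterase that strips a methyl group off the tail of the PP2A phosphatase, and the S156A change replaces its catalytic serine by alanine. The comparison asks how transcripts differ in the brain that carries this change. The p-values below measure the spread between pools and not that between single embryos, and the labels do not say how many litters gave the pools.

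A motile cilium beats by the sliding of its microtubule doublets, driven by dynein arms and governed by radial spokes and a central apparatus. In cells that carry many motile cilia, the geminin-family proteins GMNC and MCIDAS start the program with E2F factors, CCNO and the deuterosome serve the multiplication of centrioles, and FOXJ1 and RFX factors turn on the axonemal genes. In the brain such cells are those of the choroid plexus epithelium, which is ciliated before birth, and the ependymal cells of the ventricle walls, most of which form their motile cilia after birth.

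RFX factors bind the X-box, whose core is GTTGCC, and the members were examined for these letters because their regulators are part of the set. RefSeq windows of GRCm38.p6 were given for 33 of the 39 members. In the 250 bases before the transcript start, GTTGCC or its reverse complement GGCAAC was found in 14 of these 33 genes (42.4%), against 11.8% of all 27025 genes with a window. It was in 3 of 5 regulators and in 11 of 28 axonemal members (39.3%). In lists set beside them it was in 11 of 39 other motile axoneme genes (28.2%), 4 of 13 dynein arm assembly factors (30.8%), 3 of 10 choroid plexus markers (30.0%) and 8 of 39 genes of primary cilia and intraflagellar transport (20.5%). The forkhead motif GTAAACA, searched on both strands, was in 2 of 33 members (6.06%) and in 3.54% of all genes. Such a match is a description of letters and not a binding site. The whole 250 bases before the starts of Mcidas and Ccno are shown because these neighbouring genes had the widest ratios between genotypes among the 6 regulators. Shorter stretches follow from Rfx2, another regulator with the motif, from Tekt1 and Cfap44, whose groups did not overlap in TPM, and from the paralogs Dnah7a and Dnah7b. Dnah10 and Spag16, also with the motif and without overlap in TPM, are not shown. All are written 5′ to 3′ on the gene's strand, with each copy of the core motif, in either orientation, in capitals.
Mcidas, chr13:112993618-112993867, plus strand: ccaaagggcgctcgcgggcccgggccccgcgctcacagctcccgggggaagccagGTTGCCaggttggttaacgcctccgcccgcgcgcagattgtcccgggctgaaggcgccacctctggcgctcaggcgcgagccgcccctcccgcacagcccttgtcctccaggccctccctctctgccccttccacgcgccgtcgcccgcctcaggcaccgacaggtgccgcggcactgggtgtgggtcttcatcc
Ccno, chr13:112987552-112987801, plus strand: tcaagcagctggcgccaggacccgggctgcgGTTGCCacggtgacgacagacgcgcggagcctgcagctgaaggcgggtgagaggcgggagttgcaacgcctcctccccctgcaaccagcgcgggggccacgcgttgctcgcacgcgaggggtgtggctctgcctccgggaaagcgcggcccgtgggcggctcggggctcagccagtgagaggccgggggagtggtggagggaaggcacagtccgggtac
Rfx2, chr17:56831097-56831146, minus strand: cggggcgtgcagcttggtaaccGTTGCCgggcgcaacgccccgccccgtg
Tekt1, chr11:72361890-72361939, minus strand: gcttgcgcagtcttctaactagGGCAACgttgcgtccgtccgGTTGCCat
Cfap44, chr16:44394758-44394798, plus strand: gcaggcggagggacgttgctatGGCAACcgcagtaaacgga
Dnah7a, chr1:53706957-53707006, minus strand: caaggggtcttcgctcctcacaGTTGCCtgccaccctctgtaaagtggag
Dnah7b, chr1:46066668-46066717, plus strand: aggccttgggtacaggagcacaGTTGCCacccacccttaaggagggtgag

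Expression is given in TPM (StringTie's transcript abundance unit), a length-scaled share of each library in which expression levels of different genes can be compared, at estimated depths of 3.15 to 4.14 aligned gigabases. The limma test was run on log2(TPM + 1) over the 18893 genes with a mean of at least 1 TPM, and log2 differences below are on that scale, S156A minus WT, which understates the change of low genes. Some libraries held RNA of tissues next to the brain. The summed level of 10 skeletal muscle markers was 8480, 68.3 and 56.6 TPM in S156A replicates 1 to 3 and 17.7, 1030 and 8020 TPM in WT replicates 1 to 3. The 17 markers of nasal and airway epithelium, another multiciliated tissue, summed to 185, 7.28 and 7.12 TPM in S156A and to 6.30, 9.18 and 131 TPM in WT. Counts and medians are therefore also given without S156A replicate 1 and WT replicate 3, an alternative added once these sums were known. Xist, transcribed from the inactive X chromosome of female cells, was at 239, 236 and 91.6 TPM in S156A, against 135, 0.05 and 68.8 TPM in WT. Of 4 Y-linked genes, the highest in S156A replicate 1 was Ddx3y, at 0.27 TPM. Ddx3y was at 11.6 and 13.6 TPM in S156A replicates 2 and 3 and at 9.86, 19.6 and 16.4 TPM in WT. The pools thus differed in sex makeup, and a fit with the level of these Y-linked genes as a covariate is among the alternatives.

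The motile cilia genes stood mostly higher in S156A than in WT brains, but no member passed the test over all genes. The mean TPM was higher in S156A for 36 of 39 members, the exceptions being Ccdc39, Rsph9 and Tppp3. In 18 of the 39 members (46.2%) every S156A library was above every WT library, against 8.63% of the 36715 genes with any expression, and the reverse was found in 0 members, against 5.12% of those genes. The filter kept 30 of the 39 members, and Mcidas, Ak7 and Cfap54, whose WT means were below 1 TPM, passed it only through their S156A values, so counts over these 30 describe them and support nothing. Of the 30, limma called 0 at an adjusted p under 0.05, against 0.159% of all tested genes called in either direction and 0.0847% called higher. The log2 difference was above 0 for 27 of the 30, against 61.7% of all tested genes. At an unadjusted p under 0.05, 10 of 30 were higher in S156A, against 8.41% of all tested genes, and 1 was lower, against 5.5%. Among the 30, 13 had all S156A values above all WT values, against 13.7% of all tested genes, and 0 had all of them below, against 7.05%. Without S156A replicate 1 and WT replicate 3, 0 of 30 members were called, 8 were higher at an unadjusted p under 0.05, against 10.5% of all tested genes, and 1 was lower, against 6.11%. In that setting 16 of 30 members had no overlap in either direction. This was close to the share over all tested genes, 49.9%, since fewer libraries separate more easily. In these bulk samples, more cells of a type and more RNA per cell cannot be told apart.

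Of the regulators, 5 of 6 had all S156A values above all WT values, against 8.63% of the 36715 genes with any expression. The median log2 difference of the 5 tested regulators was 0.88, that of the 25 tested axonemal members 0.41 and that of all tested genes 0.089. Without S156A replicate 1 and WT replicate 3 the medians were 1.13 for regulators and 0.31 for axonemal members. The difference between the lists is a description and was not tested.

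**Figure D1:**
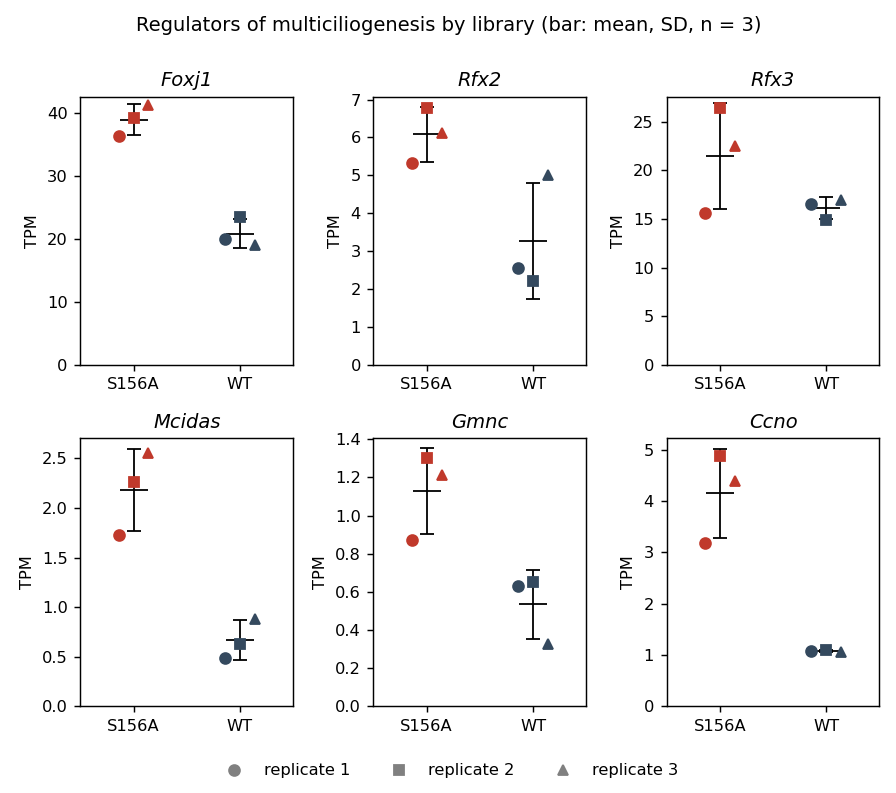
TPM of the 6 regulators in each library, S156A left and WT right, with 1 marker shape per replicate number and black bars for the mean and SD (n = 3 each). The groups do not overlap for Foxj1, Rfx2, Mcidas, Gmnc and Ccno, while S156A replicate 1 of Rfx3, at 15.6 TPM, lies within the WT range.

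Foxj1 (ENSMUSG00000034227.8, chromosome 11, 116221530 to 116226225 in the files' coordinates, minus strand) encodes the forkhead factor required for motile cilia. It had 36.3, 39.2 and 41.2 TPM in S156A, against 20.0, 23.5 and 19.0 TPM in WT, in the order of replicates 1 to 3 used throughout. The lowest S156A library was above the highest WT library. Its means were 38.9 ± 2.5 TPM in S156A and 20.8 ± 2.39 TPM in WT (SD, n = 3 each). The log2 difference was 0.88 (limma SE 0.13, adjusted p = 0.068). By unadjusted p it stood at place 70 of 18893 tested genes. Depth-scaled coverage, an alternative added later, uses the mean read depth over the gene in place of TPM. For Foxj1 its values equal the TPM in every library, so the log2 difference of 0.88 there is not a second measurement. The limma adjusted p was 0.0458 in that fit, where the values of other genes changed. On that scale 0.197% of all tested genes were called higher. Without a filter, 18 of 39 members had all S156A values above all WT values on it, against 9.65% of all genes, and 16 of these were among the 18 found with TPM. Some of these, Mcidas and Dnah6 among them, also hold the same values on both scales, so their agreement was fixed in advance.

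Ccno, the cyclin of centriole multiplication, stood at 3.18, 4.88 and 4.38 TPM in S156A, against 1.08, 1.10 and 1.06 TPM in WT. Mean levels were 4.14 ± 0.87 TPM in S156A and 1.08 ± 0.02 TPM in WT (SD, n = 3 each), a ratio of 3.84. On the log2 scale the groups differed by 1.29 (limma SE 0.25, adjusted p = 0.098). The WT libraries lay within 0.04 TPM of one another, while the S156A libraries spread more widely and all lay above them.

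Mcidas, the coactivator that starts multiciliogenesis, lies 3.07 kilobases downstream of Ccno on the same strand of chromosome 13. It was at 1.73, 2.26 and 2.55 TPM in S156A and at 0.49, 0.63 and 0.88 TPM in WT, a ratio of means of 3.27. The log2 difference was 0.93 (SE 0.27; limma adjusted p = 0.22). Every S156A value was above every WT value, at coverages of only 0.51 to 3.68 reads per base. Gmnc, which acts before Mcidas, was below the expression filter. It stood at 0.87, 1.30 and 1.21 TPM in S156A, against 0.63, 0.65 and 0.33 TPM in WT, and its groups did not overlap. In the fit without a filter its log2 difference was 0.47 (unadjusted p = 0.042), where 0 genes were called in all and 2001 were higher at an unadjusted p under 0.05 (5.45%).

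The RFX factors bind the X-box described above. Rfx2, which binds X-boxes of ciliary genes, was at 5.32, 6.79 and 6.13 TPM in S156A and at 2.56, 2.22 and 5.01 TPM in WT. WT replicate 3 came close to the lowest S156A library. Its log2 difference was 0.78 (SE 0.29; limma adjusted p = 0.31) in TPM but 0.28 (SE 0.16) on depth-scaled coverage, where the groups still did not overlap. Rfx3, a regulator of both primary and motile cilia, was at 15.6, 26.4 and 22.5 TPM in S156A and at 16.6, 14.9 and 17.0 TPM in WT. These groups overlapped through S156A replicate 1, and the log2 difference was 0.36 (SE 0.20; limma adjusted p = 0.48).

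**Figure D2:**
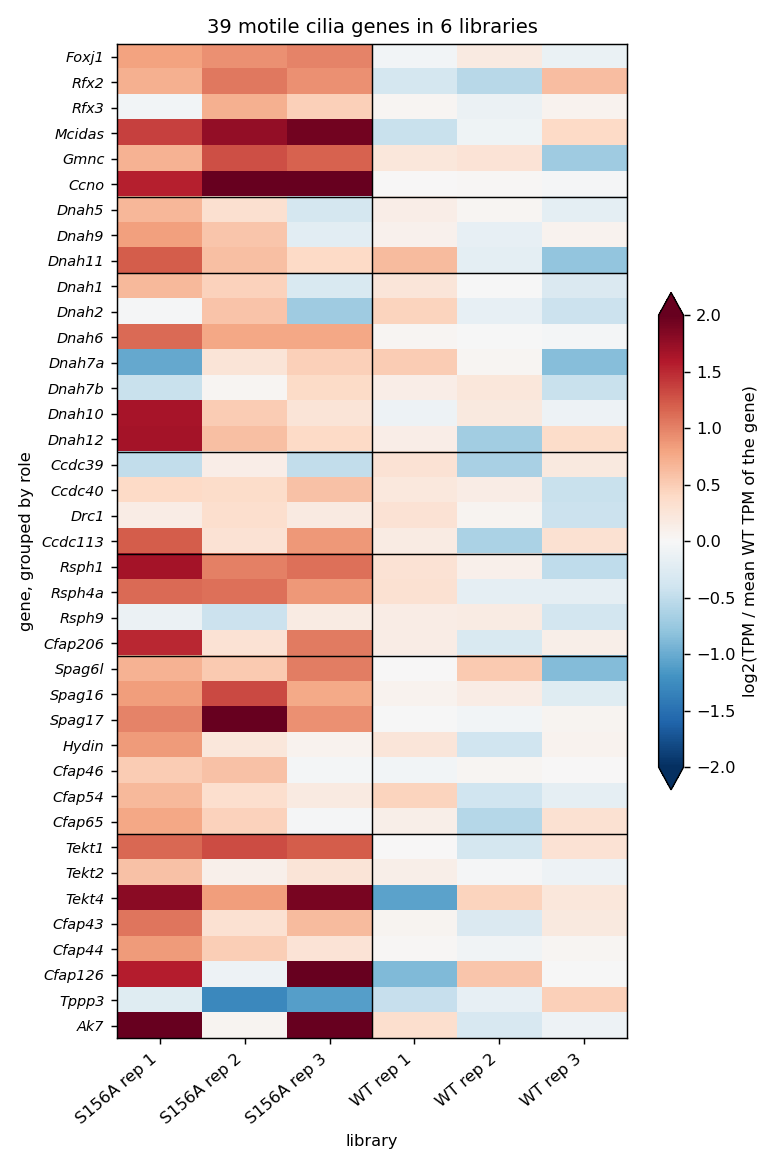
Colour shows log2 of the TPM of each of the 39 genes over that gene's mean in WT, with S156A libraries in the left columns, WT libraries in the right columns and black lines between roles. Most S156A cells are red, Tppp3 is blue in S156A, and the reddest S156A column differs between the regulators at the top and the dynein genes below them.

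The S156A libraries ranked differently for regulators and for axonemal genes. S156A replicate 1 was the lowest S156A library for 6 of 6 regulators, but the highest for 18 of 33 axonemal members. As the median ratio to the WT mean of each gene, regulators stood at 1.69, 2.25 and 2.11 in S156A replicates 1 to 3, against 0.98, 0.98 and 1.01 in WT replicates 1 to 3. Axonemal members stood at 1.78, 1.37 and 1.31 in S156A, against 1.10, 0.97 and 0.94 in WT. The library with the highest axonemal ratio, S156A replicate 1, also held the most nasal and airway marker RNA, as shown above. WT replicate 3, the WT library with the most of that RNA (131 TPM), had the lowest axonemal ratio in WT, 0.94. WT replicate 1, with the least (6.30 TPM), was the highest WT library for 17 of 33 axonemal members. The part of that RNA in these values was not tested.

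Heavy chains are the motors of the dynein arms. All 10 of them were at low levels, and 5 did not pass the filter. Dnah5, of the outer arm, was at 1.26, 0.99 and 0.63 TPM in S156A and at 0.88, 0.82 and 0.69 TPM in WT. Dnah9, a distal outer-arm chain, was at 3.92, 3.26 and 1.91 TPM in S156A and at 2.34, 1.97 and 2.32 TPM in WT (log2 difference 0.30, SE 0.28). Both overlapped, since S156A replicate 3 was the lowest library of the 6 for each. Dnah11, the chain known for its role in left-right asymmetry, was at 1.26, 0.83 and 0.72 TPM in S156A and at 0.85, 0.48 and 0.32 TPM in WT, and WT replicate 1 lay within the S156A range.

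Among the inner-arm chains, Dnah6 was the tested one whose groups did not overlap. It was at 2.95, 2.28 and 2.28 TPM in S156A, against 1.38, 1.34 and 1.30 TPM in WT. The log2 difference was 0.58 (SE 0.24; limma adjusted p = 0.35). Dnah10 was at 1.76, 0.80 and 0.67 TPM in S156A and at 0.52, 0.64 and 0.52 TPM in WT, and Dnah12 at 1.55, 0.74 and 0.64 TPM in S156A and at 0.53, 0.30 and 0.63 TPM in WT. For both of these untested genes all S156A libraries were above WT, but S156A replicate 1 stood well apart and the other S156A libraries were close to the WT range.

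Dnah1, an inner-arm chain also needed in sperm tails, was at 2.84, 2.48 and 1.46 TPM in S156A and at 2.14, 1.80 and 1.47 TPM in WT. Dnah2 was at 3.98, 5.99 and 2.44 TPM in S156A and at 5.49, 3.60 and 2.98 TPM in WT. The ranges of S156A and WT overlapped for both, and the 95% interval of the log2 difference of Dnah2 ran from -0.78 to 0.79.

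Dnah7a and Dnah7b are paralogs, so reads can be split between them. Of the stretches of 100 bases in their GENCODE M21 transcripts, 19.1% of those of Dnah7a and 14.3% of those of Dnah7b also occur in transcripts of other genes, most often Dnah7c. Dnah7a was at 2.72, 6.61 and 7.73 TPM in S156A and at 7.83, 5.69 and 3.07 TPM in WT. On depth-scaled coverage it was at 0.61, 0.46 and 0.55 in S156A and at 0.61, 0.42 and 0.33 in WT, so TPM and read depth put the libraries in different orders. Dnah7b was at 0.65, 0.90 and 1.15 TPM in S156A and at 0.97, 1.03 and 0.65 TPM in WT. Groups overlapped for both paralogs on both scales.

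The radial spoke genes held some of the clearest differences among the axonemal members. Rsph1, of the spoke head, was at 15.8, 10 and 10.6 TPM in S156A, against 6.09, 5.31 and 3.47 TPM in WT. Its means were 12.1 ± 3.16 TPM in S156A and 4.96 ± 1.34 TPM in WT (SD, n = 3 each). On the log2 scale the difference was 1.14 (limma SE 0.26, adjusted p = 0.16). All S156A values exceeded all WT values. Rsph4a, also of the spoke head, was at 4.65, 4.55 and 3.87 TPM in S156A and at 2.63, 1.88 and 1.88 TPM in WT (log2 difference 0.78, SE 0.23; limma adjusted p = 0.23). Here too the groups did not overlap.

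Cfap206, a protein of the spoke base, was at 5.17, 2.22 and 3.74 TPM in S156A and at 2.03, 1.47 and 1.98 TPM in WT. The log2 difference of 0.69 (SE 0.31) was 0.34 on depth-scaled coverage. Rsph9, also of the spoke head, was among the highest members, at 37.1, 30.0 and 45.0 TPM in S156A and at 44.6, 45.3 and 31.1 TPM in WT. Its groups overlapped, with a log2 difference of -0.11 (SE 0.20). Rsph9 shares 6876 bases with Mrps18a on the other strand, and its read depth relative to its FPKM was 0.18 to 0.23 of the commonest ratio in the libraries, so its TPM is less certain than that of the other spoke genes.

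**Figure D3:**
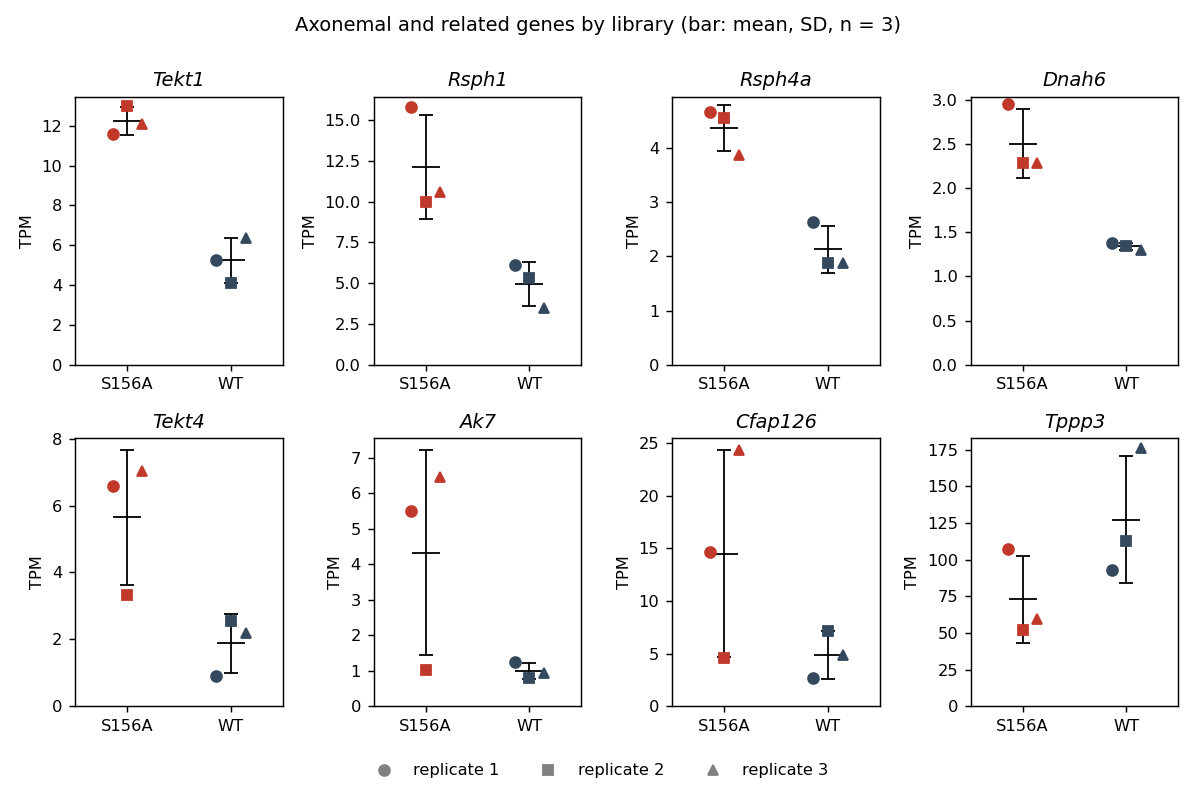
TPM of 8 axonemal and related genes in each library, S156A left and WT right, with black bars for the mean and SD (n = 3 each). Tekt1, Rsph1, Rsph4a, Dnah6 and Tekt4 do not overlap between the groups, S156A replicate 2 of Ak7 and Cfap126 falls among the WT libraries, and Tppp3 has lower S156A libraries.

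Tekt1, a tektin filament protein inside the doublets, had the smallest unadjusted p of the axonemal members. It was at 11.6, 13.0 and 12.1 TPM in S156A, against 5.26, 4.09 and 6.37 TPM in WT. Every S156A library stood above every WT library. The means were 12.2 ± 0.71 TPM in S156A and 5.24 ± 1.14 TPM in WT (SD, n = 3 each), and the log2 difference was 1.10 (SE 0.20; limma adjusted p = 0.094). On depth-scaled coverage it was 0.98 with a limma adjusted p of 0.0498, so Foxj1 and Tekt1 were the 2 members called there.

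The other tektins were less even. Tekt4 was at 6.58, 3.34 and 7.04 TPM in S156A and at 0.90, 2.55 and 2.19 TPM in WT. Its log2 difference of 1.21 (limma SE 0.36, adjusted p = 0.23) was 0.70 on depth-scaled coverage, where the groups overlapped. Tekt2 was at 13.8, 9.79 and 10.9 TPM in S156A and at 9.90, 9.01 and 8.59 TPM in WT. It overlapped by a small margin, with a log2 difference of 0.29 (SE 0.19) that was 0.02 on depth-scaled coverage.

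Ak7, the adenylate kinase of motile cilia, and Cfap126, which works with basal body placement, had high values in the same S156A libraries. The WT mean of Ak7 was 0.985 TPM, so it passed the filter only through S156A. Ak7 was at 5.50, 1.03 and 6.45 TPM in S156A and at 1.24, 0.79 and 0.92 TPM in WT (log2 difference 1.22, SE 0.50; limma adjusted p = 0.35). Cfap126 was at 14.6, 4.58 and 24.3 TPM in S156A and at 2.64, 7.17 and 4.89 TPM in WT (log2 difference 1.22, SE 0.57). For both, S156A replicate 2 lay within the WT range and the other S156A libraries above it. On depth-scaled coverage the log2 differences were 0.37 for Ak7 and 0.70 for Cfap126, with Ak7 at 2.22, 1.03 and 1.54 in S156A and at 1.24, 0.79 and 0.92 in WT.

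Cfap43 and Cfap44, whose proteins tether inner-arm motors, did not overlap between groups in TPM. Cfap43 was at 4.57, 2.70 and 3.37 TPM in S156A and at 2.26, 1.78 and 2.51 TPM in WT, and it overlaps Itprip on the same strand. Cfap44 was at 8.25, 6.43 and 5.55 TPM in S156A and at 4.70, 4.39 and 4.70 TPM in WT. Their log2 differences were 0.50 (SE 0.26) and 0.45 (SE 0.21), and neither passed the test (limma adjusted p = 0.44 and 0.40). On depth-scaled coverage the groups of Cfap44 overlapped, with S156A replicate 1 at 4.66 and WT replicate 1 at 4.70, while those of Cfap43 did not.

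Tppp3, a microtubule-bundling protein that cells without motile cilia also make, was the highest member and went the other way. It was at 107, 52.0 and 59.7 TPM in S156A, against 92.6, 113 and 176 TPM in WT. S156A replicate 1 lay within the WT range and the other S156A libraries below it. The log2 difference was -0.82 (SE 0.32; limma adjusted p = 0.33).

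Genes of the ruler along the doublets and of the nexin link between them had log2 differences from -0.22 to 0.62 in TPM. None passed the test (smallest limma adjusted p = 0.41). Ccdc39, of the ruler pair that sets the axonemal repeat, was at 14.6, 22.6 and 14.6 TPM in S156A and at 25.1, 13.1 and 23.6 TPM in WT (log2 difference -0.22, SE 0.28). Ccdc40, its partner, was at 7.45, 7.26 and 8.42 TPM in S156A and at 6.50, 6.22 and 4.15 TPM in WT (log2 difference 0.41, SE 0.22), and its groups did not overlap. Drc1, of the nexin link, was at 8.53, 9.73 and 8.69 TPM in S156A and at 9.40, 7.97 and 5.74 TPM in WT. Ccdc113, of the same linking complex, was at 5.02, 2.64 and 3.92 TPM in S156A and at 2.42, 1.39 and 2.66 TPM in WT (log2 difference 0.62, SE 0.30), with S156A replicate 2 just inside the WT range. On depth-scaled coverage the log2 differences were 0.059 for Ccdc39, 0.51 for Ccdc40 and 0.27 for Drc1. There the groups did not overlap for Ccdc40 and Drc1, while the values of Ccdc113 are the same on both scales.

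The 7 genes of the central apparatus had higher S156A means in all cases, with low levels in most. Spag6l was at 9.54, 8.44 and 12.0 TPM in S156A and at 5.93, 8.50 and 3.22 TPM in WT (log2 difference 0.74, SE 0.32), which was 0.25 on depth-scaled coverage. Spag17 was at 0.52, 1.39 and 0.49 TPM in S156A and at 0.26, 0.25 and 0.27 TPM in WT, and on depth-scaled coverage at 0.52, 0.45 and 0.49 in S156A and at 0.26, 0.25 and 0.27 in WT. All S156A values of Spag17 were above all WT values on both scales, at 0.27 to 0.71 reads per base. Hydin ranged from 0.52 to 0.90 TPM in S156A and from 0.37 to 0.59 TPM in WT, and it overlapped. Spag17 shares bases with Wdr3 on the other strand, as Dnah11 does with Cdca7l and Ccdc39 with Ttc14. The log2 differences of Cfap46, Cfap54 and Cfap65 were 0.24, 0.22 and 0.33, each with overlapping groups.

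**Figure D4:**
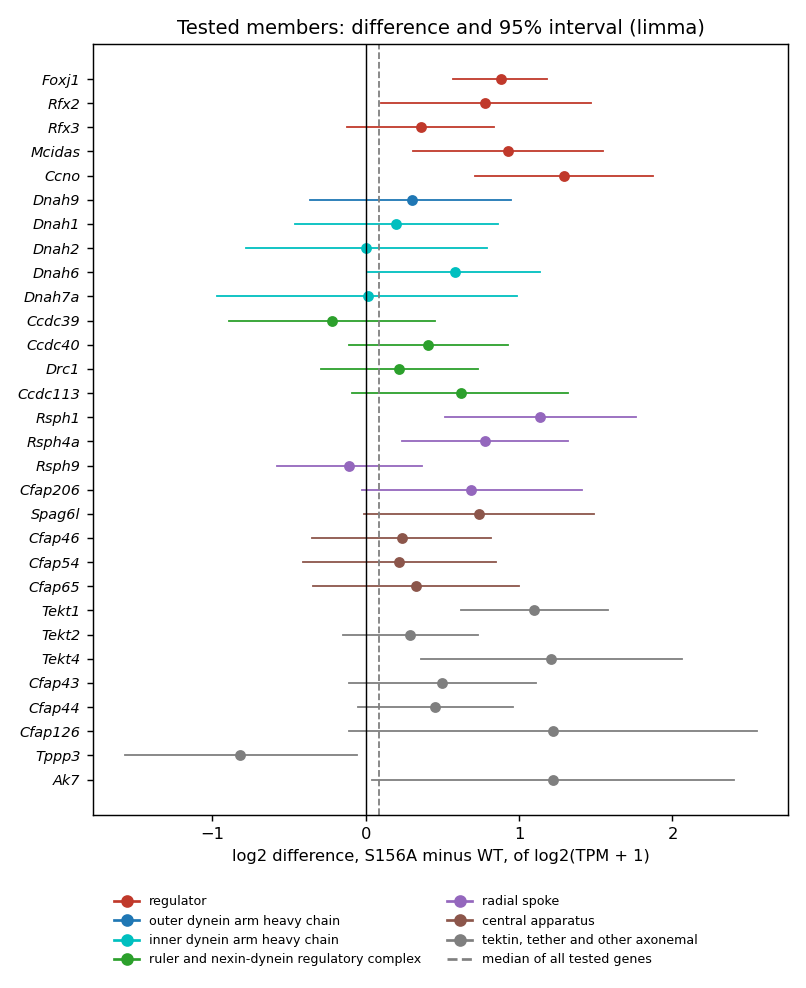
Points show the log2 difference, S156A minus WT, of the 30 tested members and lines the 95% interval from limma, coloured by role, with a dashed line at the median of all tested genes, 0.089. Intervals above 0 are those of Foxj1, Rfx2, Mcidas, Ccno, Dnah6, Rsph1, Rsph4a, Tekt1, Tekt4 and Ak7, and the interval of Tppp3 lies below 0.

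Other genes of the motile program were examined for comparison. Of 42 tested genes among the other motile axoneme genes, 12 were higher in S156A at an unadjusted p under 0.05 and 0 were lower. Over all tested genes these shares were 8.41% and 5.5%. The median log2 difference of the list was 0.38, and 0 of its genes were called. Among the 12, Cfap77 and Lrriq1 had WT means of 0.577 and 0.926 TPM. Both passed the filter only through S156A, so the count only describes these genes. Odad1, of the outer-arm docking complex, was at 10.4, 10.1 and 8.69 TPM in S156A and at 4.61, 2.73 and 2.79 TPM in WT (log2 difference 1.32, SE 0.24; limma adjusted p = 0.093). Pifo, Iqcg and Cfap52 had log2 differences of 1.10, 0.61 and 0.94. All S156A values of these 4 genes were above their WT values, as in 14 of the 42 tested genes, against 13.7% of all tested genes. The 4 were picked by unadjusted p, so their lack of overlap is not separate support.

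Dynein arms are put together in the cytoplasm by assembly factors. Of 13 tested genes of this kind, 3 were higher and 0 lower at an unadjusted p under 0.05 (median log2 difference 0.41). The shares over all tested genes were 8.41% and 5.5%. Zmynd10, one of these factors, was at 11.8, 12.5 and 8.86 TPM in S156A, against 4.14, 5.04 and 5.02 TPM in WT (log2 difference 1.06, SE 0.21; limma adjusted p = 0.10). The groups did not overlap for Daw1, Cfap300 and Dnaaf5 either, with log2 differences of 0.89, 0.41 and 0.41. With Zmynd10 these were 4 of the 13 tested genes, against 13.7% of all tested genes.

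Of 13 tested genes among other regulators and deuterosome genes, 2 were higher and 0 lower at an unadjusted p under 0.05 (median log2 difference 0.23). Over all tested genes, 8.41% were higher and 5.5% lower. Deup1, the scaffold of the deuterosome, was at 2.39, 2.88 and 2.83 TPM in S156A and at 1.70, 1.08 and 1.35 TPM in WT. Myb, a transcription factor of early multiciliogenesis and of dividing cells, was at 5.09, 5.11 and 5.07 TPM in S156A and at 1.22, 4.64 and 1.43 TPM in WT. Neither gene overlapped between groups, although WT replicate 2 came close to S156A for Myb. Rfx4 and E2f5 had log2 differences of 0.74 and 0.33. Fank1, tied with E2f5 in this test (limma adjusted p = 0.42 for both), went the other way. It was at 0.30, 0.41 and 0.25 TPM in S156A, against 0.92, 4.17 and 0.62 TPM in WT (log2 difference -0.94). Among the genes of this list it alone had all S156A values below all WT values, against 7.05% of all tested genes. All S156A values were above all WT values in 5 of the 13 tested genes, against 13.7%.

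Primary cilia, the single sensory cilia of most cells, share transport proteins with motile cilia but lack the motility machinery. Their 45 genes, all tested, had a median log2 difference of 0.12, near the 0.089 of all genes. At an unadjusted p under 0.05, 3 of the 45 were higher and 1 lower, against 8.41% and 5.5% of all tested genes. Ift74 and Ift43, of the transport complexes, had log2 differences of 0.60 and 0.62, and Tmem67, of the transition zone, 0.62. Kif17, a kinesin also used in neuronal dendrites, was at 1.01, 0.93 and 1.12 TPM in S156A, against 1.68, 3.42 and 4.78 TPM in WT (log2 difference -1.02, SE 0.33; limma adjusted p = 0.27).

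**Figure D5:**
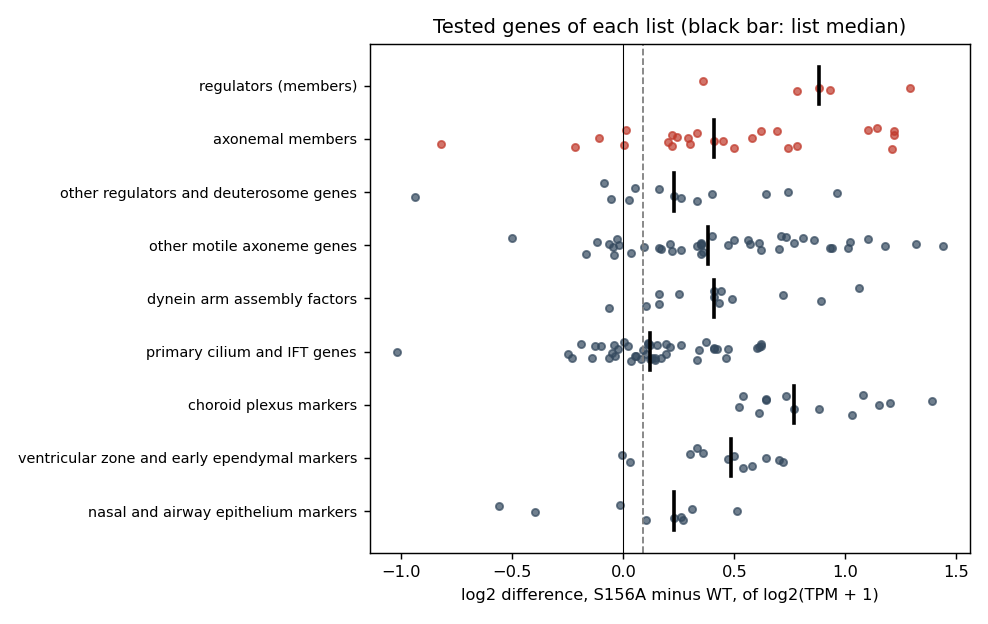
Each point is the log2 difference, S156A minus WT, of 1 tested gene, with black bars for list medians and a dashed line at the median of all tested genes. Red points are the members, with medians of 0.88 for regulators and 0.41 for axonemal members, beside 0.77 for choroid plexus markers and 0.12 for primary cilium genes.

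Markers of the choroid plexus were also at higher levels in S156A libraries. The choroid plexus list summed to 2450, 2570 and 3600 TPM in S156A, against 1600, 1320 and 1200 TPM in WT. Of its 13 tested genes, 9 were higher and 0 lower at an unadjusted p under 0.05, against 8.41% and 5.5% of all tested genes. The median log2 difference was 0.77. Ttr, the thyroxine carrier of this tissue, was at 2180, 2320 and 3330 TPM in S156A, against 1470, 1170 and 1030 TPM in WT, a ratio of means of 2.14 beside 1.87 for Foxj1. Clic6, Kcne2 and Slc13a4 had log2 differences of 1.20, 1.15 and 1.39, and their groups did not overlap. All S156A values were above all WT values in 9 of the 13 tested genes, against 13.7% of all tested genes. None of these markers was at 0 in any library.

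The ventricular zone and early ependymal list summed to 1530, 1580 and 1570 TPM in S156A, against 912, 1070 and 1220 TPM in WT. Of its 12 tested genes, 3 were higher and 0 lower at an unadjusted p under 0.05, against 8.41% and 5.5% of all tested genes. The median log2 difference was 0.48. Nes, the intermediate filament of neural progenitors, Cd24a, Aqp4 and S100b had log2 differences of 0.50, 0.64, 0.70 and 0.58, and these are markers of progenitors and glia as well as of the ventricle wall. Genes of the list tied to ependymal cilia, chosen after their values were seen, had log2 differences of -0.0053 for Tmem212, 0.03 for Fam183b and 0.30 for Dynlrb2. Tmem212 was highest in S156A replicate 1, at 11.2 TPM, and WT replicate 3, at 7.21 TPM. The other genes of the list were at 0.72 for Mia, 0.54 for Ankrd66, 0.47 for Vim, 0.36 for Hes5 and 0.33 for Sox9. All S156A values of Nes, Cd24a, Aqp4 and S100b were above all WT values. These were 4 of the 12 genes (33.3%), against 13.7% of all tested genes. Groups overlapped for the other 8. Neither list has a gene that passed over all genes, and the part of these tissues in the values of the cilia genes was not tested.

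Nasal and airway markers did not separate the genotypes. Of 9 tested genes, 0 were higher or lower at an unadjusted p under 0.05 by limma, against 8.41% and 5.5% of all tested genes. Scgb3a1, a secretory protein of airways that was chosen after its values were seen, was at 31.8, 0 and 0.38 TPM in S156A and was listed at 0, 0 and 25.2 TPM in WT. The muscle actin gene Acta1 had 2610, 17.7 and 18.7 TPM in S156A and 8.22, 333 and 2470 TPM in WT. The anterior pituitary list summed to 356, 194 and 162 TPM in S156A, against 9.03, 12.5 and 144 TPM in WT. By limma, 2 of its 4 tested genes were higher in S156A at an unadjusted p under 0.05, against 8.41% of all tested genes. Gh, the growth hormone of the pituitary, was at 310, 166 and 130 TPM in S156A and was listed at 0, 1.69 and 97.1 TPM in WT. Cga, a pituitary hormone subunit, was at 3.39, 4.96 and 2.93 TPM in S156A and was listed at 0, 0 and 1.36 TPM in WT. The WT mean of Cga was 0.454 TPM, so it passed the filter only through S156A and its place in the count supports nothing. Gh and Cga had all S156A values above all WT values. The part of pituitary RNA in the values of the cilia genes was not tested.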

How the data were processed

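Total RNA was extracted with TRIzol from pools of 3 brains, and libraries were made with a directional MGIEasy kit, per the labels' protocols. Per the submitters' processing notes, the tools were StringTie 2.1.5, Trim Galore 0.6.6 and HISAT2 2.2.1. The deposited TPM, the deposited FPKM (fragments scaled by length and depth) and the deposited coverage (signal as mean read depth per base) are StringTie gene values, per the file headers. The strand setting and annotation release were not stated. The notes name a human build, but the rows carry mouse gene identifiers, and 2 of 39 members start within 1000 bases of their GRCm38 position, so coordinates of genes are given as the files have them and those of promoter windows in GRCm38.p6.

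Rows sharing a gene identifier were summed, and assembled loci without one were left out. The tables hold no counts, so no counting intervals are given. Depth was estimated from the commonest ratio of coverage to FPKM, at which 13.2% to 13.8% of rows with an FPKM above 10 sat. Depth-scaled coverage is coverage over the commonest ratio of coverage to TPM of the library.

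Expression was tested with limma 3.58.1 in R 4.3.3 (log2(TPM + 1), eBayes with trend, two-sided, Benjamini-Hochberg adjustment over 18893 genes, threshold 0.05), a procedure that was tested on simulated data. The simulated noise was independent for each gene, so that test does not cover tissue RNA that moves many genes together. Members, lists and tests were chosen with earlier results of these data known. All members are accounted for. From each other list up to 4 genes with the smallest unadjusted p, and Ttr, Acta1 and Gh, were named. Further genes were chosen after their values were seen. The alternatives comprised 16 planned settings and 3 added after seeing the data.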

Additional observations from a re-analysis of the deposited data

How the results depend on the processing

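By limma, 0 members were called under every other alternative and 2 (Foxj1 and Tekt1) on depth-scaled coverage. The number of genes called over the whole table, 30, was 0 without a filter, 52 with quantile normalization, 16 without a trend, 0 without S156A replicate 1 and WT replicate 3, 1 with the Y-linked level as a covariate and 85 on depth-scaled coverage, and it ran from 0 to 70 with 1 library left out (0 without S156A replicate 2, S156A replicate 3 or WT replicate 2, 1 without S156A replicate 1, 2 without WT replicate 1 and 70 without WT replicate 3). The 11 members at an unadjusted p under 0.05 were 6 with FPKM, where 20 members were tested, and 4 with a mean TPM of at least 5, where 14 were, and from 7 to 11 with 1 library left out. The 13 of 30 members without overlap in either direction (20.8% of all tested genes) were 8 of 20 with FPKM and 5 of 14 with a mean TPM of at least 5 (22.5% of all genes in each). The median of regulators was 0.44 with a pseudocount of 5.

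Where 0 genes were called, 3364 without a filter, 3141 without S156A replicate 1 and WT replicate 3, 1880 with the replicate block and 1542 to 2275 with 1 library left out had an unadjusted p under 0.05, against 2628 in the fit reported.

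With the replicate number as a block, limma called 0 genes and 0 members, and 9 members had an unadjusted p under 0.05. Same-numbered libraries did not deviate together (r of -0.55, 0.19 and -0.41 for replicates 1 to 3). The highest r, 0.65, was between S156A replicate 1 and WT replicate 3, both rich in muscle RNA. Such deviations, taken from means of 3 libraries, cannot show whether same-numbered pools shared a litter or a batch.

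Of 543 fits of the 30 tested members, 20 turned the sign, all in Dnah1, Dnah2, Dnah7a, Ccdc39 and Rsph9, which the fit reported puts between -0.22 and 0.20. Dnah2 was at -0.0082 with FPKM, -0.0038 with a pseudocount of 0.1, -0.065 with a trimmed mean of M values, -0.12 with quantile normalization, -0.16 without S156A replicate 1 and WT replicate 3, and -0.05 both with the Y-linked covariate and on depth-scaled coverage. Dnah7a was at -0.057 with a trimmed mean and -0.12 with quantile normalization. Without S156A replicate 1 and WT replicate 3, Dnah1 was at -0.019 and Ccdc39 at 0.0024, and Ccdc39 was at 0.059 on depth-scaled coverage. With 1 library left out, values ran from -0.25 to 0.26 for Dnah2, from -0.29 to 0.39 for Dnah7a and from -0.28 to 0.037 for Rsph9. The cause was not tested. Apart from these sign changes, values at low read depth are less certain. Gmnc had 0.38 to 1.74 reads per base and Mcidas 0.51 to 3.68.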

Other observations

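Ccno and Mcidas lie beside the Mir449 genes on chromosome 13, and the next genes of that stretch had their own levels. Dhx29, a helicase gene upstream of Ccno, was at 20.8, 24.4 and 23.2 TPM in S156A and at 24.7, 24.7 and 20.2 TPM in WT. Gpx8, on the other strand downstream of Mcidas, was at 69.4, 39.3 and 42.3 TPM in S156A and at 22.8, 27.8 and 47.0 TPM in WT. Cdc20b, which hosts the Mir449 genes, was at 0.96, 1.19 and 1.30 TPM in S156A and at 1.14, 0.54 and 1.17 TPM in WT. These genes were chosen after their values were seen, and all 3 overlapped between groups.

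Spag16, a central apparatus gene, was at 0.07, 0.10 and 0.07 TPM in S156A and at 0.04, 0.05 and 0.04 TPM in WT by its annotated row. The highest assembled locus on its strand within its span was at 2.52, 5.43 and 1.81 TPM in S156A and at 1.89, 2.15 and 1.30 TPM in WT. Whether these loci belong to Spag16 was not tested. Other members also held assembled loci above their annotated row, such as Cfap46 in S156A replicate 1 (23.6 against 2.42 TPM).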
